A study of Homo sapiens with 2 samples.

Results

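The 6 transcripts described here, MT-CO1, MT-CO2, MT-CO3, MT-ATP6, MT-ATP8 and MT-CYB, are the mitochondrial-genome messages for cytochrome c oxidase, cytochrome b and the ATP synthase. They were picked by symbol from the 36601 human features of the count matrices, with earlier results of these data known although the rule itself uses no measured value, and all 6 were found. The samples were 2 sections, 1 from each of tumor 1 and tumor 2, grown from the established line MDA-MB-231, derived from a human triple-negative breast cancer, and belonging to a single group without treatment. The line carries a hypoxia fate-mapping reporter, whose fluorescence was not used here, and the tumors were taken on day 18 after implanting and frozen, with slices of 10 µm on the Visium slides. Each Visium spot captures polyadenylated RNA from a small region that can hold several cells, and its transcripts are counted as unique molecular identifiers (UMIs). Within each section, 3 contrasts were made: an area of low total UMIs against the rest, the top against the bottom quartile of a hypoxia score, and the inner against the outer tertile of depth. The study asks whether cells that have met hypoxia keep its transcriptional program in oxygenated tissue, a question these zones do not test.

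Mitochondria make most of the ATP of a respiring cell by passing electrons along the respiratory chain to oxygen and using the resulting proton gradient to drive ATP synthase. The mitochondrial genome encodes a core part of this machinery, and the remaining subunits come from nuclear genes and are imported. Cytochrome b, encoded by MT-CYB, is the mitochondrially encoded subunit of complex III, which hands electrons to cytochrome c. MT-CO1, MT-CO2 and MT-CO3 encode the catalytic core of complex IV, the enzyme that reduces oxygen. MT-CO1 carries the haem and copper site where oxygen is reduced, MT-CO2 receives electrons from cytochrome c, and MT-CO3 encodes the other mitochondrial subunit of the core. MT-ATP6 and MT-ATP8 encode membrane subunits of complex V, ATP synthase, and MT-ATP6 forms part of the proton path. The messages are cut from long shared precursors, so they start from common transcription and reach separate levels through processing and turnover.

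In the RefSeq table of GRCh38.p14, which pairs the members with the symbols COX1, COX2, COX3, ATP6, ATP8 and CYTB, 5 members lie next to each other on the mitochondrial chromosome (MT). MT-CO1 (ENSG00000198804) spans positions 5904 to 7445, MT-CO2 (ENSG00000198712) 7586 to 8269 and MT-ATP8 (ENSG00000228253) 8366 to 8572. MT-ATP6 (ENSG00000198899) follows at 8527 to 9207 and MT-CO3 (ENSG00000198938) at 9207 to 9990. MT-CYB (ENSG00000198727) lies apart at 14747 to 15887. MT-ATP8 and MT-ATP6 share 46 bases and are read from 1 message, and MT-ATP6 and MT-CO3 share 1 base. Reads within a shared stretch cannot be given to either gene, so the split between MT-ATP8 and MT-ATP6 also depends on where reads fell and on how the counting treated the overlap. Nuclear copies of mitochondrial genes can share reads with all of the members.

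Tumor 1 gave 58661164 UMIs over 2536 spots with at least 500 UMIs, with a median of 23574 per spot. Tumor 2 gave 39735490 UMIs over 2841 such spots, with a median of 15895. Markers of the line, such as VIM at 5639 and 5548 CPM (UMIs scaled to library size), were high, and ESR1, PGR and CDH1 had at most 7 UMIs each in a tumor. Markers of fibroblasts summed to 886 and 1070 CPM and those of skeletal muscle to 13.5 and 178 CPM in tumors 1 and 2. Myeloid markers summed to 203 and 183 CPM, red blood cell markers to 63.2 and 37.0 CPM, and those of endothelium and adipocytes to at most 8.51 CPM, and CLDN5 in tumor 2 and S100A8 in tumor 1 were at 0. CD68 alone gave 177 and 167 CPM of the myeloid sums, while PTPRC was at 0.205 and 0.277 CPM. The fibroblast sums were mostly COL1A1, COL1A2 and COL3A1, with DCN at 0.665 and 0.201 CPM. These sums thus rest on few genes and do not measure the content of a cell type. The features are human alone, so host reads aligning to them cannot be separated from tumor reads. Spots hold several cells, so fewer cells of a type and less RNA per cell cannot be told apart either.

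The members were among the most abundant messages of both tumors, with the exception of MT-ATP8. As a share of all UMIs, MT-CO2 made up 0.434% in tumor 1 and 0.303% in tumor 2, ranking 17 and 36 among all genes. MT-CO1 followed at 0.387% and 0.273%, and MT-CO3 at 0.363% and 0.248%. MT-ATP6 stood at 0.196% and 0.149%, and MT-CYB at 0.118% and 0.0873%. MT-ATP8 was far below the others at 0.00816% and 0.00405%, with ranks 1949 and 4222, and was seen in 76.9% of spots in tumor 1 and 39.5% in tumor 2. The other 5 members had a UMI in at least 94.2% of spots in either tumor. Per length, MT-CO2 was the highest at 6346 and 4431 CPM per kb, followed by MT-CO3 at 4634 and 3168 CPM per kb and MT-ATP6 at 2879 and 2194 CPM per kb. MT-CO1 came next at 2509 and 1771 CPM per kb, then MT-CYB at 1037 and 765 CPM per kb, and MT-ATP8 was lowest at 394 and 196 CPM per kb. The order per length was the same in both tumors. Since a UMI counts a captured molecule whatever its length, these values per length do not rank the members by abundance. All 6 shares were higher in tumor 1, and both tumors belong to the same group, so no contrast between them was tested.

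**Figure D1:**
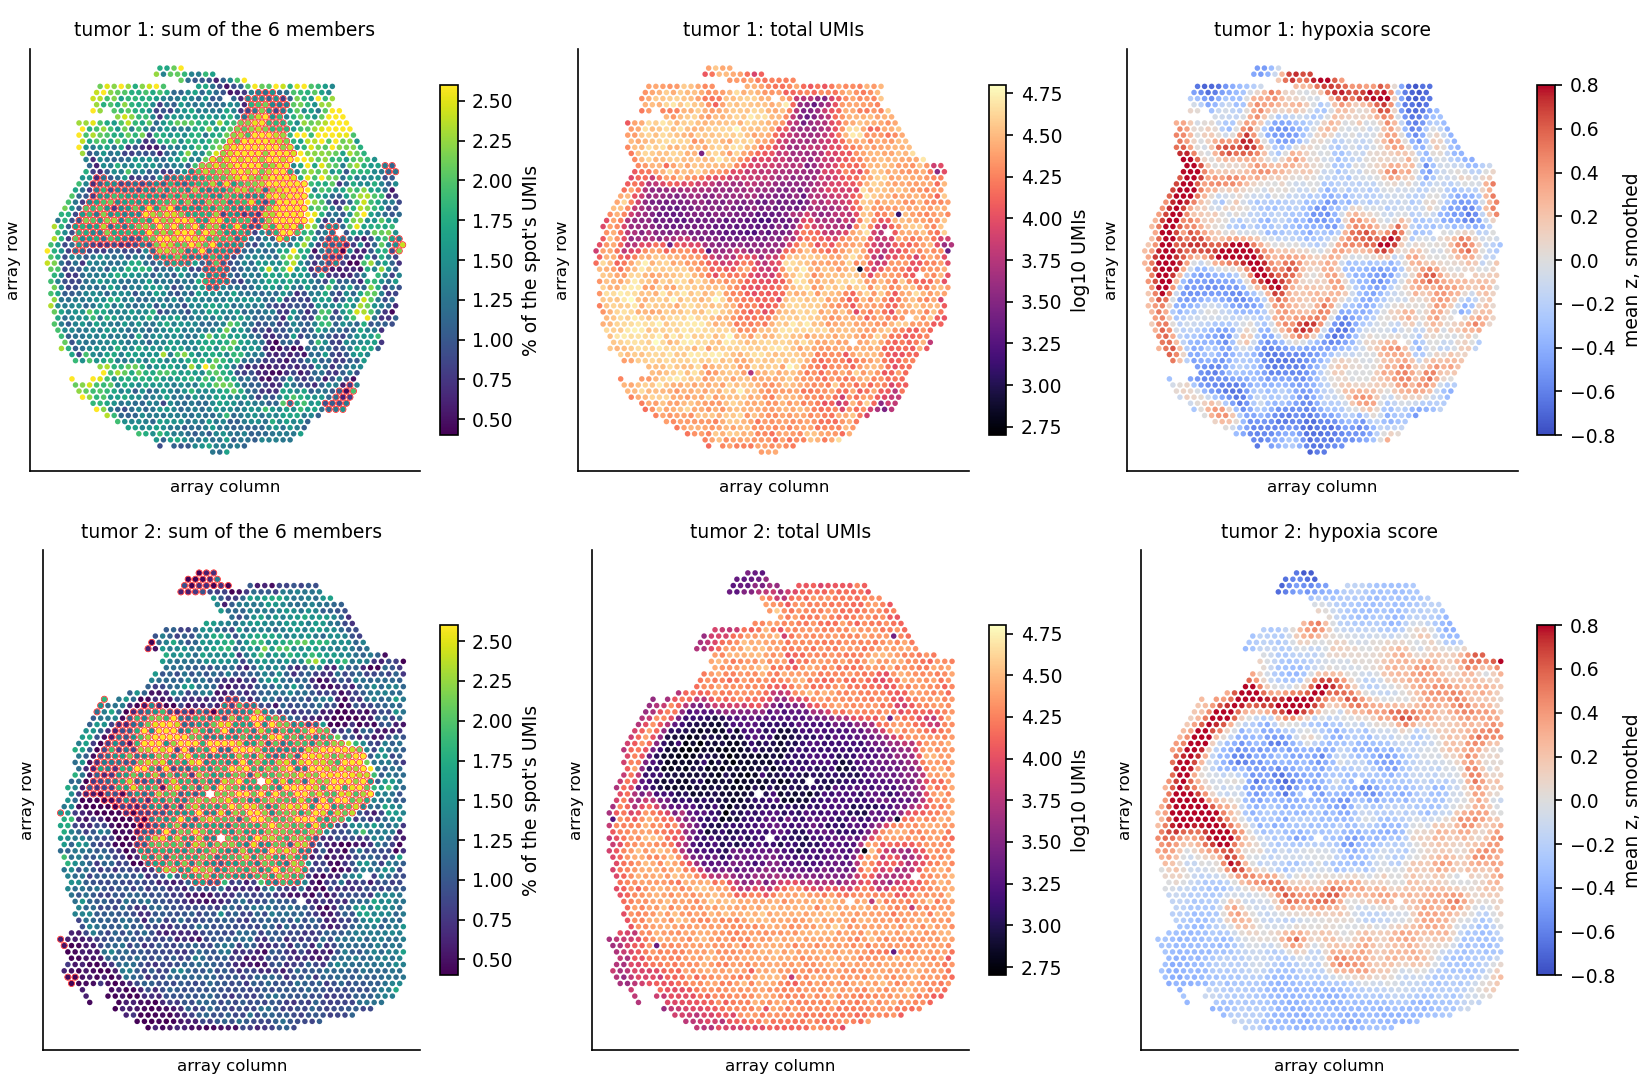
Spot maps of tumor 1 (top) and tumor 2 (bottom) by array column and row: the summed share of the 6 members in each spot's UMIs (%, colour cut at 0.4 and 2.6), log10 total UMIs, and the hypoxia score (mean z, smoothed over adjacent spots). Red rings mark the spots of the low-UMI area, 566 in tumor 1 and 856 in tumor 2. The highest member shares lie inside this area, away from its rim, and low shares run along parts of its outside.

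The share of the members was patchy, as the spot maps show. Moran I, a measure of how alike adjacent spots are, was 0.572 and 0.535 for MT-CO1, 0.566 and 0.553 for MT-CO2, and 0.594 and 0.445 for MT-CO3 in tumors 1 and 2. Among the 4693 genes averaging 0.5 UMI or more per spot, these values ranked between 5 and 13. MT-ATP6 had 0.533 and 0.355, MT-CYB 0.40 and 0.245, and MT-ATP8 0.216 and 0.236, against a median of 0.052 and 0.091 over the ranked genes. Moran I falls with sparse counts, so the lower values of the less abundant members are not comparable with those of the abundant ones.

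Members rose and fell together over spots. Outside the low-UMI area, the 10 pairs without MT-ATP8 had Pearson r of 0.733 to 0.832 in tumor 1 and 0.629 to 0.756 in tumor 2, on log2 of 1 plus UMIs per 10000. The 5 pairs with MT-ATP8, which has few UMIs, had 0.302 to 0.368 and 0.115 to 0.188. These are descriptions across spots that share a library within each tumor and differ in depth. The 5 genes most like the summed members over 2536 and 2841 spots were all mitochondrial-genome complex I messages. MT-ND3 led with r of 0.836 and 0.732, followed by MT-ND4 with 0.821 and 0.675, MT-ND2 with 0.715 and 0.576, MT-ND1 with 0.657 and 0.508, and MT-ND5 with 0.442 and 0.362. Over all 4693 genes the mean r of the tumors had a median of -0.075, with 95% of genes at or under -0.018.

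The low-UMI area was the first zone compared. It was drawn per section by a threshold on UMIs averaged over a spot and its neighbours, and it took 22.3% of spots in tumor 1 and 30.1% in tumor 2. Its spots had a median of 4815 and 1470 UMIs, against 27364.5 and 19973 in the rest. All 6 members took a larger share of UMIs there in both tumors, and MT-ATP8 gained far more than its neighbours on the genome. The total of all genes drew this area, whereas the share of a gene in it did not. That total is also the denominator of each share, so zone and share are not fully separate.

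In the share of UMIs, MT-CYB, the complex III member, stood at 0.140% in the low-UMI area and 0.117% in the rest of tumor 1, and at 0.131% and 0.0856% in tumor 2. Of the complex IV core, MT-CO1 had 0.444% in the low-UMI area and 0.384% in the rest of tumor 1, and 0.431% and 0.267% in tumor 2. MT-CO2 had 0.515% and 0.430% in tumor 1, and 0.480% and 0.296% in tumor 2. The 2 tumors thus lay close together inside the area and further apart outside it. MT-CO3 had 0.441% and 0.359% in tumor 1, and 0.389% and 0.243% in tumor 2. Of the ATP synthase pair, MT-ATP6 had 0.263% and 0.192% in tumor 1, and 0.264% and 0.145% in tumor 2. MT-ATP8 had 0.0201% in the low-UMI area and 0.00749% in the rest of tumor 1, and 0.0328% and 0.00292% in tumor 2. For each member, both low-UMI values lay above both values of the rest, as the plot of shares by zone shows. Summed, the members took 1.82% in the low-UMI area against 1.49% in the rest of tumor 1, and 1.73% against 1.04% in tumor 2.

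**Figure D2:**
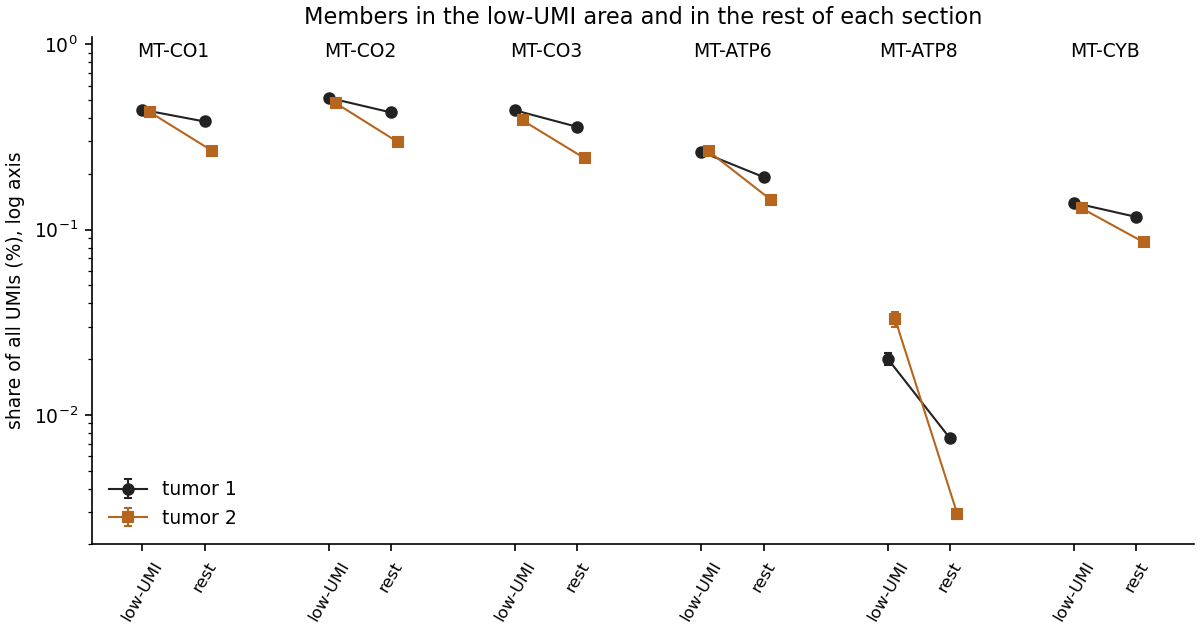
Share of all UMIs (%, log axis) of each member in the low-UMI area and in the rest, for tumor 1 (circles) and tumor 2 (squares), with Wilson 95% intervals for counting error. Every line falls towards the rest, and that of MT-ATP8 falls most, to 0.00749% in tumor 1 and 0.00292% in tumor 2.

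Zone sums were fitted in edgeR's quasi-likelihood test over all 15346 genes that passed the filter on low counts. All 6 members were called higher at a Benjamini-Hochberg adjusted p of 0.05, where 7.28% of all tested genes were called in either direction, 4.5% higher and 2.78% lower. MT-CYB rose by log2 0.53 ± 0.07 (SE of the fit, n = 2 tumors, edgeR adjusted p = 1.19e-10), with 0.34 in tumor 1 and 0.72 in tumor 2. MT-CO1, MT-CO2 and MT-CO3 rose by log2 0.55, 0.58 and 0.59, with 0.30 to 0.39 in tumor 1 and 0.79 to 0.80 in tumor 2. MT-ATP6 rose by log2 0.76 ± 0.07 (edgeR adjusted p = 2.64e-24), with 0.54 and 0.97 in the tumors. MT-ATP8 rose 5.56-fold (log2 2.48 ± 0.09, edgeR adjusted p = 2.28e-163), with log2 1.51 in tumor 1 and 3.59 in tumor 2, and ranked 25 from the highest of all tested genes. The median over the members was log2 0.58, against -0.02 over all tested genes.

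The fit has 1 residual degree of freedom and shared its variance over all genes without bound here, so these errors do not carry the gap between the tumors. DESeq2 called 5 members and gave MT-ATP8 an adjusted p of 0.0546, and a fit without the tumor block called 0, with 2252 of all genes at an unadjusted p under 0.05. With 2 tumors, an exact sign permutation test cannot go below p = 0.5.

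These are shares, and the number of UMIs per spot was lower in the area for nearly all of them. Total UMIs per spot averaged 5551 in the low-UMI area against 28182 in the rest of tumor 1, and 1761 against 19259 in tumor 2. MT-CO2 averaged 28.6 against 121 UMIs per spot in tumor 1, and 8.45 against 57.0 in tumor 2. MT-ATP8 averaged 1.11 against 2.11 UMIs per spot in tumor 1, whereas in tumor 2 it averaged 0.577 against 0.562. Per spot, MT-ATP8 in tumor 2 was the 1 member not below the rest.

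The ratio of UMIs counted for MT-ATP8 to those for MT-ATP6 therefore differed between zones. Both genes are read from 1 message, and where reads fell on it was not tested. Per 100 MT-ATP6 UMIs there were 7.64 MT-ATP8 UMIs in the low-UMI area of tumor 1 (Wilson 95% interval 7.04 to 8.28), against 3.90 in the rest (3.78 to 4.02). In tumor 2 there were 12.4 (11.3 to 13.6) against 2.01 (1.90 to 2.14). The intervals cover counting error within a section and not the spread between tumors. MT-CO1 per 100 MT-CO2 UMIs was nearly level, at 86.2 against 89.3 in tumor 1 and 89.7 against 90.1 in tumor 2.

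The change in share followed distance from the edge of the area in both tumors. Counted in steps between adjacent spots, the summed members took 2.18% and 2.01% of UMIs at 4 or more steps inside, in tumors 1 and 2. They took 1.98% and 1.76% at 2 or 3 steps inside, and 1.51% and 1.3% on the inner rim. At 1 step outside, they fell to their lowest value, 1.3% and 0.805%. They stood at 1.5% and 0.915% at 2 or 3 steps outside, at 1.47% and 1.06% at 4 to 8 steps, and at 1.53% and 1.07% at 9 or more. MT-ATP8 per 100 MT-ATP6 UMIs followed the same axis without a dip at the border, with 9.45 and 13 at 4 or more steps inside, 5.01 and 4.55 at 1 step outside, and 3.53 and 1.92 at 9 or more steps outside. The ring 1 step outside also had the highest mean hypoxia score of the 7 rings, at 0.354 in tumor 1 and 0.405 in tumor 2, and the part of that score in the dip was not tested here.

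**Figure D3:**
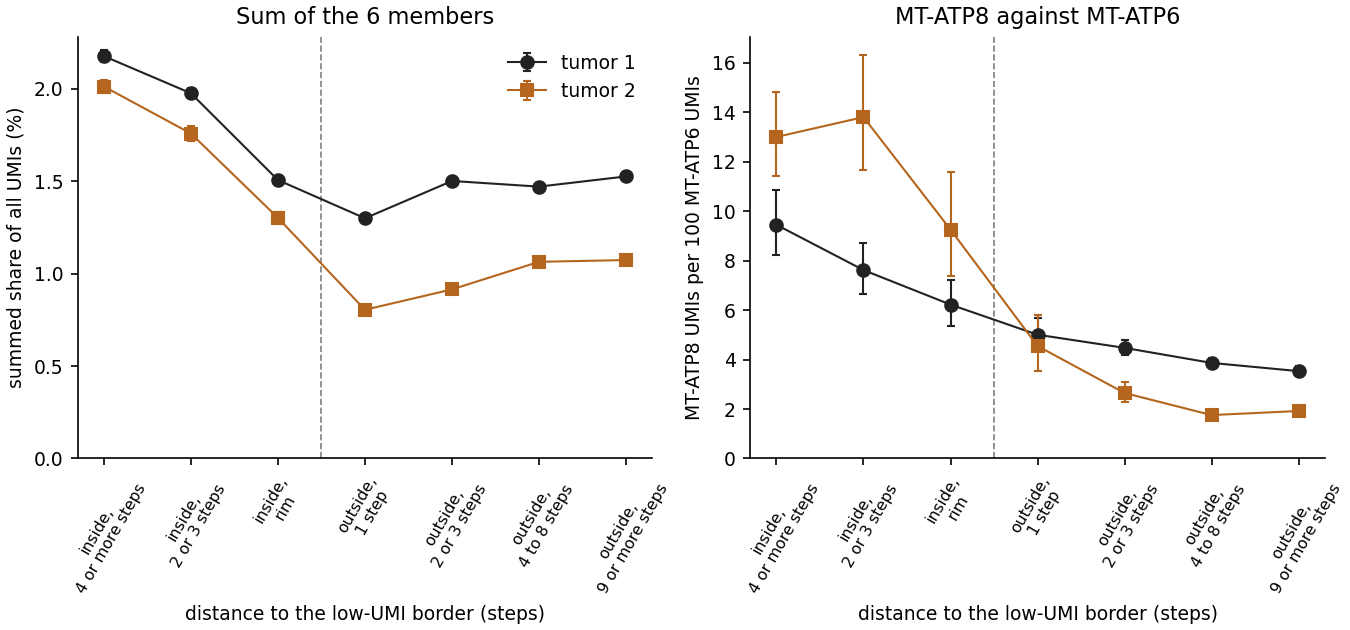
Summed share of the 6 members in all UMIs (%, left) and MT-ATP8 UMIs per 100 MT-ATP6 UMIs (right) by steps from the border of the low-UMI area (dashed line), for tumor 1 (circles) and tumor 2 (squares), with Wilson 95% intervals for counting error. The summed share is lowest 1 step outside, at 1.3% and 0.805%, and highest at 4 or more steps inside, at 2.18% and 2.01%.

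The other mitochondrial-genome protein genes, which encode complex I subunits, were also higher in the low-UMI area, 7 of 7 passing the test. They ran from MT-ND4 at log2 0.63 to MT-ND6, which is encoded on the opposite strand, at 2.25, with a median of 0.92. MT-ND4L and MT-ND5 rose by log2 1.48 and 1.29. Of the 13 protein genes, MT-ATP8, MT-ND6, MT-ND4L and MT-ND5 rose most and also had the fewest UMIs in both tumors. The large rise was thus not particular to MT-ATP8, and its link to low counts was not tested. The members made up 60.9% of the UMIs of the 13 protein genes in the low-UMI area and 63.7% in the rest of tumor 1, and 58.7% and 63.4% in tumor 2. The counts of the nuclear lists stand beside 7.28% of all tested genes called, 4.5% higher and 2.78% lower. Of the nuclear complex III list, 2 of 9 fell and 0 rose, UQCRQ at log2 -0.45 and UQCR10 at -0.46. Of 11 tested complex IV genes, COX6C, COX7A2 and COX7B fell, by 0.25 to 0.31 on the log2 scale, and COX8A rose by log2 0.29. Of 16 complex V genes, ATP5F1A, ATP5ME and ATP5MF fell, the lowest being ATP5ME at log2 -0.33. Among 22 assembly factors 1 was called, a share no greater than that of all genes called: COA6, an assembly factor of complex IV, rose (log2 0.33). Among 25 tested genes of mitochondrial transcription and RNA handling, TFAM, which packages and transcribes the mitochondrial genome, rose by log2 0.28. SLIRP, which binds and stabilises mitochondrial messages, fell by 0.37 on the log2 scale, and TACO1, an activator of MT-CO1 translation, fell by 0.41.

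Of the 28 genes of the hypoxia score used further on, 25 rose in the low-UMI area, although the mean score there was 0.050 against -0.012 in the rest of tumor 1, and -0.169 against 0.073 in tumor 2. The score averages logged levels of single spots, whereas the fit used UMIs summed over the zone. The part of spot depth in the score was not tested. Markers of other cells took 0.124% of UMIs in the low-UMI area against 0.117% in the rest of tumor 1, and 0.249% against 0.144% in tumor 2. Of their 38 genes, 30 were tested, 5 were called higher and 3, all of skeletal muscle, lower. Without the 10% of spots richest in them, the 6 members were again called higher, with a median of log2 0.63.

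The hypoxia quartiles came next. The score was the mean z-scored level of 28 hypoxia-induced genes, smoothed over adjacent spots, and it holds no mitochondrial gene. In the top quartile MT-CO3, MT-ATP6 and MT-CYB fell by 0.25 to 0.28 on the log2 scale, and MT-CO1, MT-CO2 and MT-ATP8 did not pass the test. The top and bottom quartiles held 634 and 634 spots in tumor 1 and 710 and 711 in tumor 2. Their median UMIs per spot were 19607 and 29917 in tumor 1, and 17104 and 3810 in tumor 2. The quartiles thus differ in depth as well as in score, and in opposite directions in the tumors.

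MT-CYB took 0.0959% of UMIs in the top and 0.130% in the bottom quartile of tumor 1, and 0.0726% and 0.0919% in tumor 2. MT-CO3 took 0.302% and 0.396% in tumor 1, and 0.203% and 0.259% in tumor 2. MT-ATP6 took 0.168% and 0.211% in tumor 1, and 0.122% and 0.161% in tumor 2. Within each tumor these 3 members were lower in the top quartile, although the top quartile of tumor 1 lay above both quartiles of tumor 2. MT-CO1 took 0.339% and 0.404% in tumor 1, and 0.242% and 0.253% in tumor 2. MT-CO2 took 0.385% and 0.443% in tumor 1, and 0.274% and 0.291% in tumor 2. MT-ATP8 took 0.00733% and 0.00749% in tumor 1, and 0.00337% and 0.00469% in tumor 2. The shares of these other members were thus lower in the top quartile of both tumors too, that of MT-ATP8 in tumor 1 only slightly.

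In the edgeR fit, 3 of 6 members were called, all lower, where 16.1% of 14128 tested genes were called in either direction, 9.01% higher and 7.04% lower. MT-CYB fell by 0.28 on the log2 scale (SE of the fit 0.08, n = 2 tumors, edgeR adjusted p = 0.0306), with -0.32 in tumor 1 and -0.23 in tumor 2. MT-CO3 fell by 0.25 (edgeR adjusted p = 0.0422), with -0.26 and -0.24, and MT-ATP6 by 0.25 (edgeR adjusted p = 0.0456), with -0.21 and -0.29. MT-CO1 was at log2 -0.04 ± 0.08 (edgeR adjusted p = 0.761) and MT-CO2 at -0.03 ± 0.08 (edgeR adjusted p = 0.839). Each had opposite signs in the tumors after scaling, although its share was lower in the top quartile of both. MT-ATP8 was at -0.10 ± 0.11 (edgeR adjusted p = 0.592). The members' median was log2 -0.17, against 0.00 over all genes. The calls were near the threshold: 0 members passed in DESeq2, without the tumor block or after thinning spots to equal UMIs, and 1 passed with spots matched on UMIs.

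Scaling moved these values. With library size alone, the median of all genes lay at log2 -0.12 and that of the members at -0.29. Higher calls made up 26.3% of all calls under that scaling, against 56.1% under the main one. Relative to the median of all genes, the members' median was then about as low as in the main fit.

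The low-UMI area was unequally spread over the quartiles, with 18.6% of top-quartile and 9.15% of bottom-quartile spots in tumor 1, and 11.3% and 50.8% in tumor 2. Quartiles were therefore redrawn over the spots outside it, 493 and 493 in tumor 1 and 496 and 497 in tumor 2. Here 2 of 6 members were called, both lower, where 19.1% of 13809 genes were called in either direction, 10.7% higher and 8.44% lower. MT-CYB stood at 0.0958% in the top and 0.130% in the bottom quartile of tumor 1, and at 0.0692% and 0.0919% in tumor 2, which gave log2 -0.30 ± 0.08 (edgeR adjusted p = 0.0184). MT-CO3 stood at 0.300% and 0.391% in tumor 1, and at 0.194% and 0.255% in tumor 2, which gave log2 -0.26 ± 0.09 (edgeR adjusted p = 0.0438). In DESeq2, without the tumor block and after thinning, 0 passed. MT-ATP6 was at log2 -0.24 ± 0.09 and did not pass (edgeR adjusted p = 0.0560). MT-ATP8 was at log2 0.19 ± 0.10 (edgeR adjusted p = 0.205), above 0 in both tumors, and MT-CO1 and MT-CO2 were at -0.06 and -0.02. With library size alone the median of all genes lay at log2 -0.12, that of the members at -0.28, and MT-ATP6 passed too, while higher calls were 26.5% of calls against 55.9%.

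Across 10 bins of the score with equal numbers of spots outside the low-UMI area, the summed members were highest in the lower middle of the scale and lowest in the top bin. In tumor 1 they took 1.58% of UMIs in the lowest bin, 1.63% in the third, 1.49% in the sixth, 1.31% in the eighth and 1.22% in the highest. In tumor 2 they took 0.940% in the lowest bin, 1.1% in the second, 1.17% in the fifth, 0.994% in the eighth and 0.785% in the highest. The lowest bin of tumor 2 was thus below the next 7 bins. That bin held the most skeletal muscle markers, 0.0860% of UMIs against 0.0350% in the second and 0.00223% in the fifth.

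**Figure D4:**
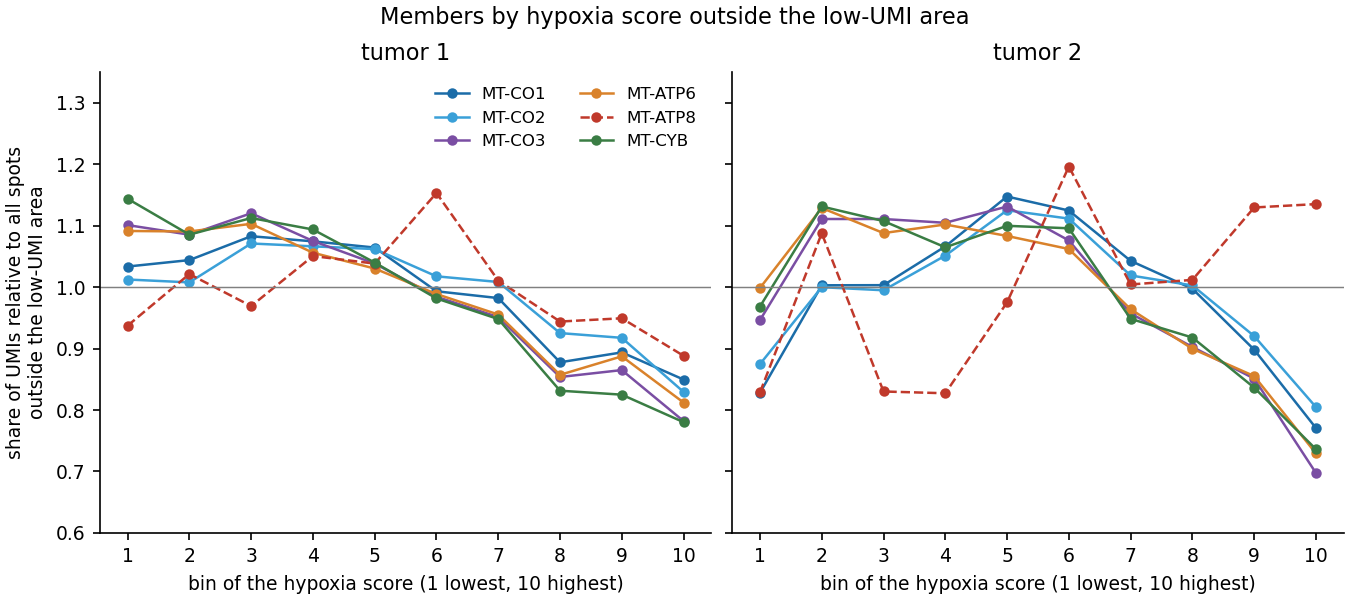
Share of UMIs of each member in 10 bins of the hypoxia score outside the low-UMI area, divided by its share over all such spots of that tumor (tumor 1 left, tumor 2 right, axis from 0.6). In both tumors MT-CO1, MT-CO2, MT-CO3, MT-ATP6 and MT-CYB are lowest in the top bin, and MT-ATP8, drawn dashed and with few UMIs, is lowest there in tumor 1 alone.

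The members' proportions to each other shifted along the score as well. Per 100 MT-CO2 UMIs, MT-CO3 had 78.6 in the top and 89.4 in the bottom quartile of tumor 1, and 74.3 and 88.7 in tumor 2. MT-CYB had 24.9 and 29.5 in tumor 1, and 26.5 and 31.5 in tumor 2. MT-ATP6 had 43.6 and 47.7 in tumor 1, and 44.6 and 55.2 in tumor 2. These 3 ratios were lower in the top quartile of both tumors, whereas MT-CO1 per 100 MT-CO2 UMIs was 88.0 and 91.1 in tumor 1, and 88.3 and 86.9 in tumor 2. The differences of the ratios were not tested across tumors.

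Markers of other cells took 0.143% of UMIs in the top and 0.113% in the bottom quartile of tumor 1, and 0.103% and 0.267% in tumor 2. Of the 38 markers, 22 were tested, 1 was called higher and 9 lower, the 3 muscle genes among them. Without the 10% of spots richest in these markers, the same 3 members were called lower, with a median of log2 -0.30 over the 6, and outside the low-UMI area MT-ATP6 was called as well, with a median of -0.27. In tumor 2, the 57 spots richest in skeletal muscle markers had 0.0727% MT-CO1 against 0.276% in the other spots, and 43.8 MT-CO1 per 100 MT-CO2 UMIs against 90.4. They had 2 MT-ATP8 UMIs in all, and the members summed to 0.483% against 1.07%. In tumor 1, where these markers were scarce, the 51 richest spots had 0.380% MT-CO1 against 0.387%. As the features are human alone, the shares in muscle-marker spots cannot be read as levels in host muscle.

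Complex I messages of the mitochondrial genome moved in both directions between the quartiles, with 1 of 7 higher and 1 lower. MT-ND4L was the highest at log2 0.25 and MT-ND6 the lowest at -0.63, and outside the low-UMI area MT-ND4L rose by log2 0.36 while MT-ND6, the lowest at -0.34, did not pass. No nuclear subunit of complex III or IV was called in either version at the adjusted threshold. UQCRQ, at log2 -0.16, and UQCRFS1, at -0.14, had the largest values in complex III, and COX5A, at -0.23, and COX7C, at 0.19, in complex IV. Over all tested genes 16.1% were called here, and 19.1% outside the low-UMI area. Of 16 complex V subunits, ATP5MC1 (log2 -0.34) and ATP5F1A (-0.26) fell and ATP5MC2 (0.27) rose, and the same genes passed outside the low-UMI area. CYCS, which encodes cytochrome c, the carrier between complexes III and IV, fell by 0.33 on the log2 scale as 1 of 22 assembly and carrier genes. COX18, an assembly factor that handles MT-CO2, was at log2 -0.33 and did not pass. Outside the low-UMI area COX18, COA7, UQCC2 and CYCS fell, and UQCC2, a factor for cytochrome b synthesis, did so at -0.08 in tumor 1 and -0.61 in tumor 2. Of 25 tested RNA-handling genes, 4 fell and 0 rose, a share called that is close to that of all genes called in either direction. Of all genes, 7.04% were called lower. The 4 were PNPT1, an RNA-degrading enzyme, ELAC2 and HSD17B10, both parts of the enzymes that cut transfer RNAs from the precursor, and TACO1. PPARGC1A, at log2 -0.53, and FASTKD1, at -0.47, had the largest values of the list and did not pass. Outside the low-UMI area, 6 fell, adding FASTKD2 and FASTKD5, RNA-binding proteins of the mitochondrial message pool, at log2 -0.33 and -0.49. There, 8.44% of all genes were called lower.

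Depth was the third axis. Spots were ranked by steps to the tissue border, with 848 inner and 919 outer spots in tumor 1 and 979 and 997 in tumor 2. Over all spots 1 member was called, MT-ATP8, which was higher in the inner tertile. Outside the low-UMI area, which fills 42.1% and 56.6% of the inner tertiles against 7.73% and 11% of the outer ones, MT-CO3, MT-ATP6 and MT-CYB were lower in the inner tertile and MT-ATP8 did not pass.

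Over all spots, MT-ATP8 took 0.00899% of UMIs in the inner and 0.00773% in the outer tertile of tumor 1, and 0.00720% and 0.00293% in tumor 2. Its rise of log2 0.68 ± 0.15 (SE of the fit, n = 2, edgeR adjusted p = 0.00742) came from log2 0.21 in tumor 1 and 1.32 in tumor 2. It was 1 of 6 members called, where 5.66% of 14758 tested genes were called in either direction, 2.3% higher and 3.36% lower. It did not pass with library size alone, in DESeq2 or without the tumor block, and it was at log2 0.38 at a minimum of 2000 UMIs, 0.33 with spots matched on UMIs and 1.303 after thinning. The other 5 members lay between log2 -0.12 for MT-CO3 and 0.00 for MT-CO1, with edgeR adjusted p of 0.356 to 1.0, and MT-ND4L and MT-ND6 were the complex I genes that rose, at log2 0.40 and 0.71. MT-ND4 was the lowest of the 7 at 0.03.

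Outside the low-UMI area the tertiles held 658 and 710 spots in tumor 1 and 672 and 662 in tumor 2. MT-CYB took 0.109% in the inner and 0.128% in the outer tertile of tumor 1, and 0.0783% and 0.0939% in tumor 2. MT-CO3 took 0.335% and 0.392% in tumor 1, and 0.221% and 0.269% in tumor 2. MT-ATP6 took 0.178% and 0.209% in tumor 1, and 0.133% and 0.159% in tumor 2. Each of the 3 was lower in the inner tertile within both tumors. MT-CO1 took 0.362% and 0.406% in tumor 1, and 0.261% and 0.270% in tumor 2. MT-CO2 took 0.404% and 0.459% in tumor 1, and 0.281% and 0.313% in tumor 2. The shares of MT-CO1 and MT-CO2 were thus also lower in the inner tertile of both tumors, and that of MT-ATP8 in tumor 1 alone.

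Here 3 of 6 members were called, all lower, where 4.57% of 14804 tested genes were called in either direction, 1.54% higher and 3.03% lower. MT-CO3 fell by 0.25 on the log2 scale (SE 0.06, n = 2, edgeR adjusted p = 0.0275), with -0.23 in tumor 1 and -0.27 in tumor 2. MT-ATP6 fell by 0.24 (edgeR adjusted p = 0.0357), with -0.24 in each tumor, and MT-CYB by 0.24 (edgeR adjusted p = 0.0395), with -0.23 and -0.25. MT-CO2 was at log2 -0.17 ± 0.06 (edgeR adjusted p = 0.136), MT-CO1 at -0.10 ± 0.06 (edgeR adjusted p = 0.398) and MT-ATP8 at 0.01 ± 0.08 (edgeR adjusted p = 0.950). With the slide frame counted as a border, 5 members were called lower, MT-CO1 and MT-CO2 included, whereas 0 passed in DESeq2, with no tumor block in the model, or after thinning.

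**Figure D5:**
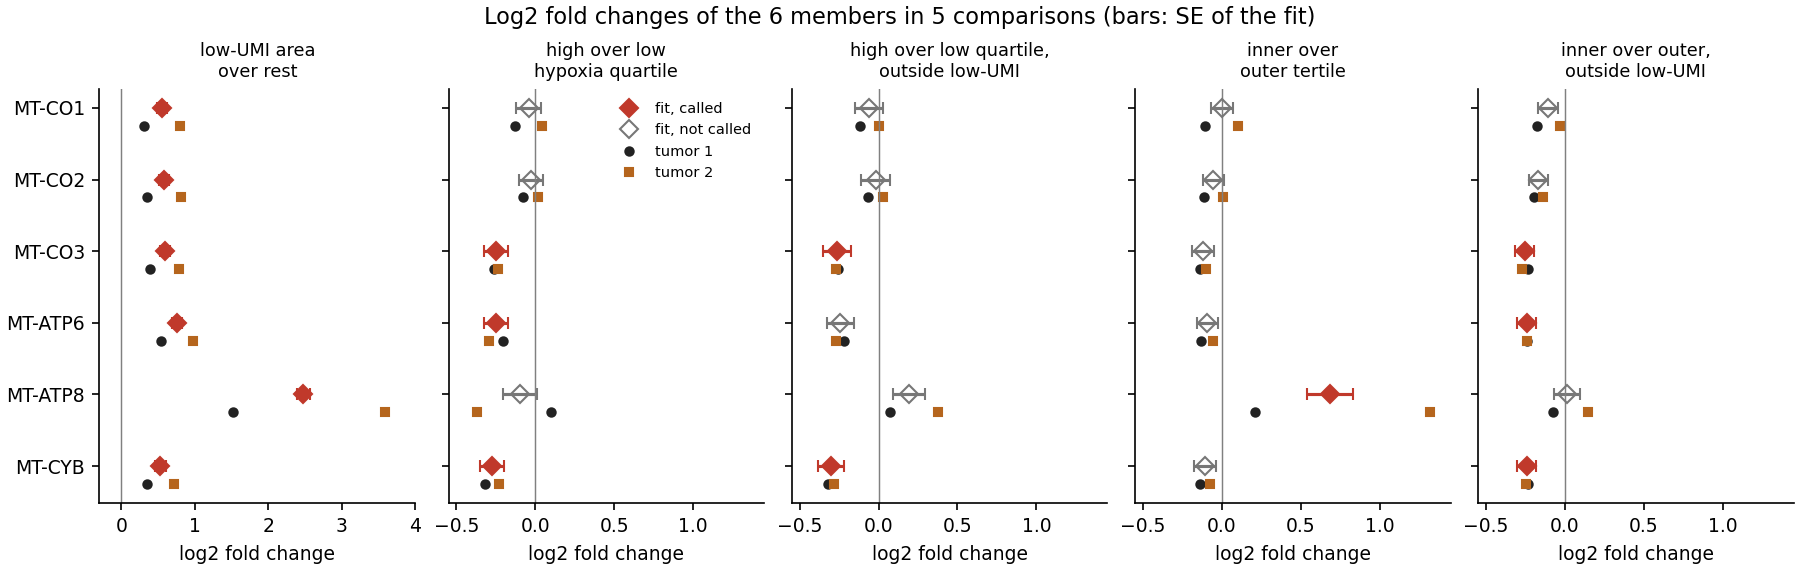
Log2 fold change of each member in the 5 comparisons, from the fit (diamonds with SE, filled red where called) and within tumor 1 (circles) and tumor 2 (squares), on a wider axis for the low-UMI area. MT-CO3, MT-ATP6 and MT-CYB lie near -0.25 in both tumors by hypoxia and by depth outside the low-UMI area, and MT-ATP8 reaches 1.51 and 3.59 in the low-UMI area.

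In steps, the summed members of tumor 1 outside the low-UMI area took 1.60% at 1 to 4 steps from the border, 1.48% at 5 to 8, 1.41% at 9 to 12 and 1.25% at 21 or more, where 70 spots were left. In tumor 2 they took 1.1% at 1 to 4 steps, 1.12% at 5 to 8, 0.968% at 9 to 12 and 1.03% at 21 or more, with 133 spots. The mean hypoxia score of these spots was 0.007 in the inner and 0.016 in the outer tertile of tumor 1, and 0.167 and -0.002 in tumor 2. In the inner tertile the share of markers of other cells was lower, 0.0823% against 0.187% in tumor 1 and 0.0655% against 0.292% in tumor 2. Of those 38 markers, 26 were tested and 18 called lower. Without the spots richest in them, the same number of members, 3, was called lower, with a median of log2 -0.20.

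Among complex I genes, 0 of 7 were called by depth outside the low-UMI area, with MT-ND6 the highest at log2 0.23 and MT-ND4 the lowest at -0.07, and 2780 of all genes had an unadjusted p under 0.05. Nuclear subunits of complexes III, IV and V had no called gene by depth, over all spots or outside the area. Of 22 assembly genes 2 were called in each version, where 5.66% of all genes were called over all spots and 4.57% outside the area. COA6 rose, by log2 0.27 over all spots and 0.28 outside the area, and UQCC2 fell, by 0.35 and 0.37 on the log2 scale. PNPT1 rose by log2 0.28 outside the area, which is the reverse of its fall with the hypoxia score.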

How the data were processed

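Visium UMI counts per gene and spot, as deposited by the authors, were analysed. Per the file headers, Space Ranger 1.3.0 produced them. The build was hg38, as the submitters' processing notes state. Tissue spots below 500 UMIs were dropped, and 1627 spot barcodes occur in both sections because the slides share an array design. UMIs were summed per tumor and zone, since spots are not replicates. The sums were tested with edgeR 4.0.16 (quasi-likelihood, filterByExpr, TMM scaling, R 4.3.3), with Benjamini-Hochberg adjustment over all tested genes. Both zones of a comparison come from the same section, so the tumor was a block. Each tumor is 1 section, and with 1 residual degree of freedom the p-values rest mainly on variance pooled over genes, not on the spread between the tumors. DESeq2 1.42.0, other scalings, filters, zone borders and spot subsets were alternatives. The fits were tested on data simulated with their own variance and with 200 changed genes. The low-UMI fit recovered 26% of changes of log2 0.5 and 63% of log2 1, with 1 false call. The other fits recovered 54% to 65% and 89% to 98%, with 7 to 12 false calls. Zone effects that differ between tumors were not simulated, so this does not check the errors against that spread. Intervals (Wilson, 95%) cover counting error only. The members and lists were chosen with earlier results of these data known. Named besides the members were all called genes of the fixed lists and, per nuclear list, the 2 genes largest in either direction by the hypoxia contrast, with the highest and lowest complex I gene per comparison and the 5 genes most correlated with the members. Protein and transcript sequences were not used here.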

Additional observations from a re-analysis of the deposited data

How the results depend on the processing

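No tumor could be left out of a fit, since 1 tumor has no residual degrees of freedom; its own values stand in the report. In the low-UMI area, 6 members were called under each alternative except DESeq2, with 5, and the fit without the replicate block, with 0. The minimum of 2000 UMIs kept 251 of the 856 spots of this area in tumor 2, and thinning kept 326. Those settings thus do not cover its shallowest spots. By hypoxia quartile (3 called), the count was 0 in DESeq2, 0 without the replicate block, 0 after thinning spots to 1753 UMIs (6 and 532 shallower spots left out), 0 for the upper against the lower part of the spots, 1 at a minimum of 2000 UMIs and 1 with spots matched on UMIs. Outside the area (2 called) it was 0 in DESeq2, 0 without the replicate block and 0 after thinning. By depth (1 called) it was 0 with library size alone, 0 in DESeq2, 0 without the replicate block and 4 with the frame edge as a border (1 higher, 3 lower). By depth outside the area (3 called) it was 0 in DESeq2, 0 without the replicate block, 0 after thinning and 5 with the frame edge. The causes were not tested.

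Some signs turned. By hypoxia, MT-ATP8 was at log2 0.22 at a minimum of 2000 UMIs, 0.12 after thinning and 0.0428 with matched spots, and outside the area MT-CO2 was at 0.015 after thinning. By depth, MT-CO1 was at -0.0079 with library size alone, -0.012 without the filter, -0.019 without the replicate block, -0.0425 at 2000 UMIs, -0.0255 without spots rich in other markers, -0.0677 with the frame edge and -0.0704 with matched spots. After thinning, depth gave MT-CO2 0.20, MT-CO3 0.14, MT-ATP6 0.21 and MT-CYB 0.16. Outside the area MT-ATP8 was at -0.0209 without the replicate block and -0.16 with the frame edge. Of the members' values under alternatives, 41 lost the call, 11 gained one and 17 turned. The remaining 339 were counted as unchanged. Among them are each tumor's own values, which have no call and can differ in sign from the fit. These were counted as unchanged by construction, since the fit lies near the middle of the tumors' values. The count of 339 thus does not measure how stable the members' values were.

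Counts over all genes (higher, lower) moved by over 1.5 times in several settings. In the low-UMI area, 691 and 426 became 245 and 77 in DESeq2, 3 and 0 without the replicate block, 429 and 176 at 2000 UMIs, 187 and 52 after thinning, and 287 and 151 for the lowest 20% of spots. Higher calls were 29% of calls with library size alone, against 61.9%. By hypoxia, 1273 and 995 became 376 and 121 in DESeq2, 552 and 309 without the replicate block, 423 and 201 after thinning, and 1928 and 1592 without spots rich in other markers. Outside the area, 1477 and 1166 became 416 and 115 in DESeq2, 720 and 451 without the replicate block, and 365 and 140 after thinning. By depth, 340 and 496 became 130 and 264 with library size alone, 23 and 79 in DESeq2, 7 and 34 without the replicate block, 562 and 770 at 2000 UMIs, 68 and 89 after thinning, and 599 and 796 with the frame edge. Outside the area, 228 and 449 became 25 and 94 in DESeq2, 488 and 731 without the filter, 0 and 21 without the replicate block, 71 and 107 after thinning, and 480 and 707 with the frame edge. With 1.89 and 0.566 UMIs per spot in tumors 1 and 2, MT-ATP8 is the member that depth limits most.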

Other observations

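Spots were also ranked into 5 bins by their total UMIs. From the lowest to the highest bin, the summed members took 1.93%, 1.41%, 1.46%, 1.54% and 1.49% of UMIs in tumor 1, and 1.93%, 1.05%, 1.0%, 1.08% and 1.05% in tumor 2. The lowest bin stood apart in both tumors, and the other 4 differed little. Per 100 MT-ATP6 UMIs, MT-ATP8 had 8.01, 5.31, 4.36, 3.62 and 3.42 in tumor 1, and 14.0, 6.73, 2.18, 1.83 and 1.87 in tumor 2. This ratio fell over more of the range than the summed share did.

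In the 10% of spots richest in markers of other cells, the members took 1.55% of UMIs against 1.5% elsewhere in tumor 1, and 0.943% against 1.07% in tumor 2. MT-CO1 per 100 MT-CO2 UMIs was 85.3 against 89.5 in tumor 1 and 72.8 against 91.2 in tumor 2. Inside the low-UMI area, the spot correlations of the 10 pairs without MT-ATP8 ran from 0.363 to 0.623 in tumor 1 and from 0.161 to 0.341 in tumor 2, below those outside it, with fewer UMIs per spot.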
